A study of Mus musculus with 2 samples.

Results

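Cadherins and protocadherins were taken from the gene counts of mouse ventral midbrain as every row whose symbol was Cdh followed by digits, or began with Pcdh, with Cdh5 left out. This gave 92 of 31252 gene rows: 17 classical cadherins, 5 other cadherins, 58 clustered protocadherins and 12 other protocadherins. The values came from 2 libraries of RNA from 2-month-old mice of the strain given as Incipient congenic C57BL/6. The control mice (Ctrl) carried Slc6a3-Cre, a Cre recombinase driven by the gene of the dopamine transporter. The overexpressing mice (OE) carried the same Cre and the allele CAG-S-COUP-TFII at ROSA26, from which Cre turns on the nuclear receptor COUP-TFII, so Cre itself is shared by both groups. The study's crosses also brought floxed Tfam and a tdTomato reporter into the litters, and the labels do not say which of these alleles the sequenced mice carried, nor whether a library holds 1 animal or a pool. The driver acts in dopaminergic neurons, whereas the RNA is from whole dissected tissue. With 1 library in each group there was no replicate check and no test, and each difference is between these libraries and not between genotypes.

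Nr2f2, the gene of COUP-TFII, had 637 counts in the Ctrl-labelled library and 377 in the OE-labelled one. Its log2 fold change, always given here as labelled OE over labelled Ctrl, was -1.07 (95% counting interval -1.26 to -0.88). The gene that the allele should raise was thus lower under the label OE. The paper measured its rise in isolated dopaminergic neurons, whereas these counts are from whole tissue. The labels were kept as given, and every direction in the text is a direction between labels that Nr2f2 goes against. The libraries summed to 16984336 and 21326632 expected counts, of which the cadherins and protocadherins held 0.210% and 0.206%. Normalized counts are these counts after division by library sizes scaled with the TMM method, and they put both libraries on a common depth. The interval beside a fold change is an exact Clopper-Pearson interval for how a gene's counts were split between the libraries, and it covers counting error only.

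Cadherins are transmembrane proteins whose extracellular repeats bind calcium and mostly join like to like between neighbouring cells. Classical cadherins bind catenins inside the cell, which tie them to actin. They sort neurons into nuclei and hold synapses together. Protocadherins lack the catenin-binding tail. The clustered protocadherins are chosen from long arrays of promoters, so that each neuron shows its own set and can recognise its own branches, whereas the delta protocadherins are single genes with regional patterns in the brain.

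The tissue labels give the cell type as dopaminergic neurons and the source as ventral midbrain, and the counts held the markers of many cell types. Mbp, a myelin gene of oligodendrocytes, had 128974 and 139810 counts. The marker lists were chosen with earlier results of these data known, so their counts only describe these libraries. The lists differed between the libraries. All 11 dopaminergic markers were higher under the label OE by more than log2 0.2 with intervals above 0, and their summed normalized counts were 27766 and 64431. All 10 thalamus markers were lower by the same rule, with sums of 24302 and 14942, and Gbx2 was at 0 in the OE-labelled library. By this rule, 9.90% of all genes compared were higher and 9.16% lower. Of 8 oligodendrocyte markers 5 were lower, with sums of 376223 and 315253, and of 7 astrocyte markers 1, Aqp4, was lower, with sums of 63342 and 58213. Of 6 endothelial markers 3 were lower, with sums of 3940 and 3712, and of 6 microglial markers 3 were lower, with sums of 4980 and 3952. The 6 pan-neuronal markers summed to 100492 and 108006, and 2 were higher and 1 lower. Only 3 of 6 choroid plexus markers could be compared, with sums of 611 and 176, and 2 were lower. Ttr, at 475 and 60.1, made up most of the Ctrl-labelled sum. Clic6 went the other way with 69.1 and 80.7, and its interval included 0. Of 5 ependymal markers 3 could be compared, with sums of 336 and 304, and 2 were lower. Foxj1 made up most of these sums, with 273 and 285 and an interval that included 0. Ccdc153 had 21 counts and 0. The part of these differences in the cadherin values was not tested. In whole tissue, fewer cells of a type and less RNA per cell cannot be told apart.

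Of the 92 rows, 83 had a mean of at least 10 counts and were compared. No member was past log2 1, a limit that 2.81% of all 15246 genes compared passed in either direction, and the members lay between -0.82 and 0.84. By more than log2 0.2, the fold the study used, 16 of the 83 (19.3%) were higher in the OE-labelled library, against 17.9% of all genes, and 24 (28.9%) were lower, against 16.6%. When the counting interval also had to lie above 0, 13 were higher (15.7%), against 9.90% of all genes. With the interval below 0, 16 were lower (19.3%), against 9.16%. The median half-width of the interval was 0.29 for the members and 0.20 for all genes. The part of counting error in these shares was not tested. Of the 83 rows, 55 were clustered protocadherins, many of which divide shared reads and are not separate observations. The summed counts of the 83 rows differed by -0.01 (interval -0.03 to 0.01), although single members differed by more. The median log2 fold change was -0.05, beside 0.0046 over all genes.

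**Figure D1:**
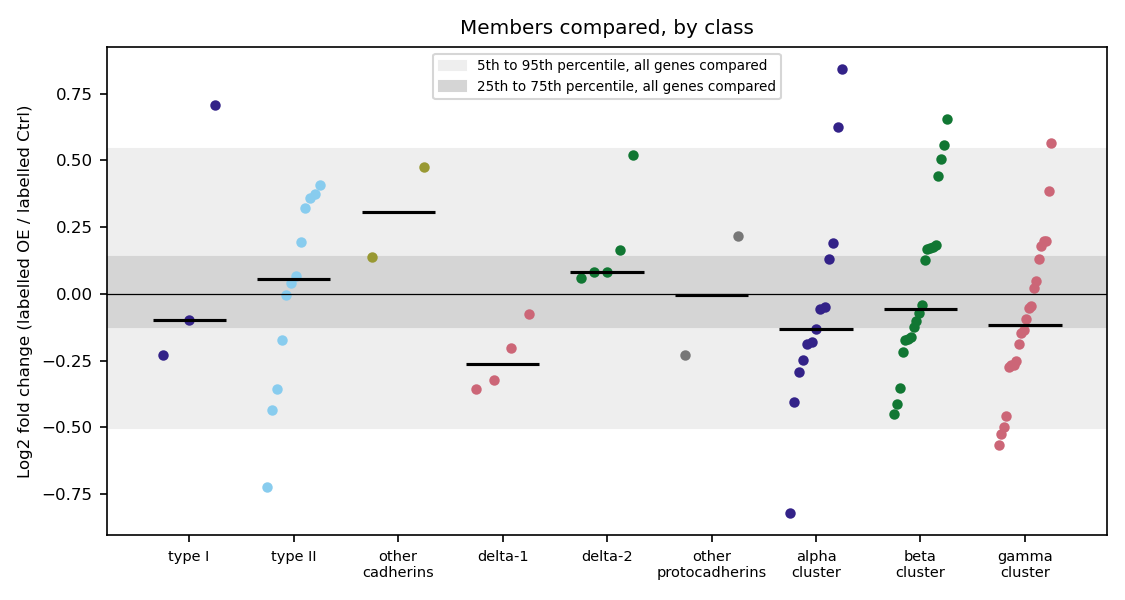
Log2 ratio of labelled OE to labelled Ctrl (vertical axis) for every compared member (points) by class (horizontal axis), with the median of each class as a bar and the 5th to 95th and 25th to 75th percentiles of all 15246 genes as shaded bands. All 4 delta-1 protocadherins lie below 0 and all 5 delta-2 protocadherins above it, whereas the other classes of more than 2 members spread to both sides of 0.

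Levels between genes are compared here as CPM per kilobase of transcript, that is, counts put on a common library total and divided by transcript length. Pcdh9 was the highest member in both libraries on this scale, with 34.8 and 27.1 in the Ctrl- and OE-labelled libraries. Cdh2, or N-cadherin, the chief classical cadherin of neurons and glia, followed with 28.3 and 26.5. Pcdh10 came next with 20.5 and 22.9. Behind them, Pcdhgc3, Cdh10, Cdh13, Pcdh7 and Cdh8 followed in this order under the label Ctrl, with 19.1, 17.2, 15.3, 13.3 and 12.8. Under the label OE the order was Cdh13, Cdh10, Cdh8 and Pcdhgc3, with 21.3, 17.7, 17.0 and 15.9. The log levels of the 28 non-clustered members compared correlated with r = 0.98 between the libraries. This describes genes that differ widely in level within the same tissue.

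**Figure D2:**
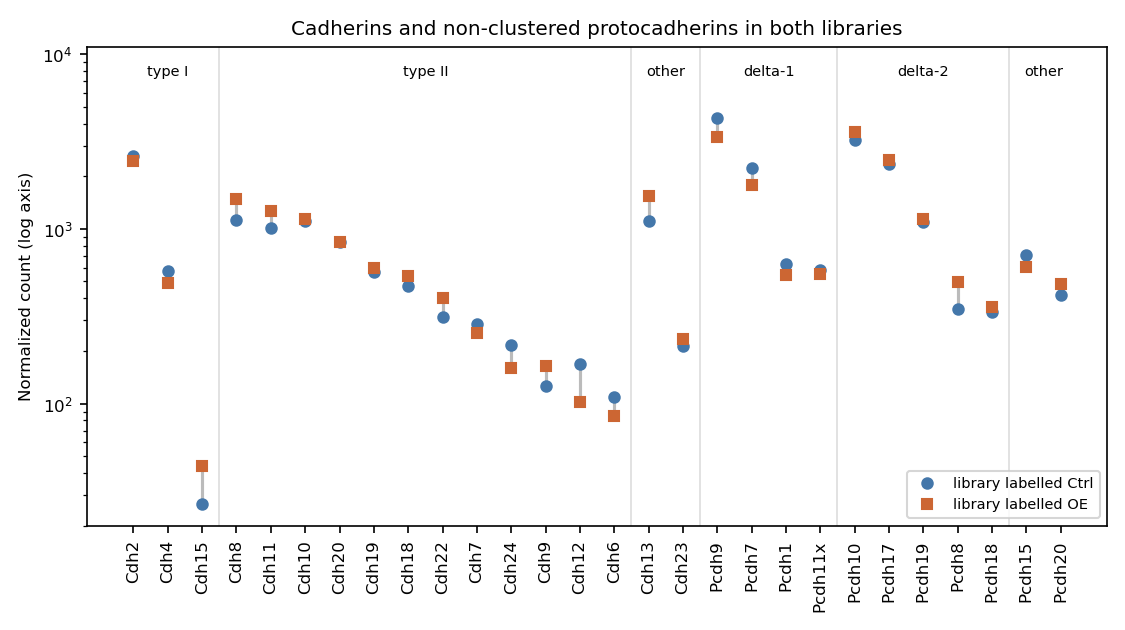
Normalized counts (log axis) of the 28 compared cadherins and non-clustered protocadherins (horizontal axis, by class), 1 point for each library. Pcdh9, Pcdh10, Cdh2, Pcdh17 and Pcdh7 stand at the top in both libraries, and Cdh15 is the lowest.

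Type I classical cadherins, which carry the strong adhesion of epithelia, muscle and neural tissue, were lower in sum under the label OE. Their summed counts differed by -0.11 (interval -0.18 to -0.04), a value set mostly by Cdh2. Cdh2 had 2612 normalized counts in the Ctrl-labelled library and 2443 in the OE-labelled one, a log2 fold change of -0.10 (-0.18 to -0.02), which is within log2 0.2. Cdh4, or R-cadherin, had 576 and 492, a difference of -0.23 (-0.41 to -0.05). It was the 1 type I member past log2 0.2 with an interval clear of 0. Cdh15, the cadherin of muscle, was near the limit of detection with 24 and 49 counts, and its interval included 0. The epithelial cadherins Cdh1 and Cdh3 had 4 and 8 counts and 1 and 0 counts, too few to compare.

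Type II cadherins, the larger neural group whose members mark single nuclei and fibre tracts, went in both directions. Of 12 compared, 4 (33.3%) were higher by more than log2 0.2 with intervals above 0, against 9.90% of all genes. With intervals below 0, 2 (16.7%) were lower, against 9.16%. The sum of the 12 was higher by 0.15 (interval 0.10 to 0.20). Cdh8, a cadherin of defined neural circuits, had 1118 and 1484 normalized counts, a difference of 0.41 (0.29 to 0.52). Cdh11, or OB-cadherin, had 1017 and 1272, a difference of 0.32 (0.20 to 0.44). Cdh22 had 314 and 404, a difference of 0.36 (0.14 to 0.58). Cdh9, which was low at 126 and 163, differed by 0.37 (0.03 to 0.73). These 4 genes make up the higher side of the type II group. Cdh8 lies on chromosome 8 from 99024471 to 99416471 and Cdh11 on the same chromosome from 102632095 to 102785642 (GRCm38).

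On the lower side, Cdh12 had 169 normalized counts in the Ctrl-labelled library and 102 in the OE-labelled one. Its log2 fold change of -0.73 (-1.09 to -0.37) was the furthest from 0 of any non-clustered member whose mean reached 100 counts. Cdh24 had 216 and 160, a difference of -0.44 (-0.74 to -0.14). Cdh6, with 109 and 85.2, was below a mean of 100 counts and past the fold at -0.36, and its interval from -0.78 to 0.06 included 0.

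The other type II cadherins stayed within log2 0.2. Cdh10 had 1114 and 1147 normalized counts (0.04, interval -0.08 to 0.16). For Cdh20 the values were 844 and 841 (-0.01, interval -0.15 to 0.13). Cdh19, a cadherin of the glial lineage in peripheral nerve, had 567 and 595 (0.07, interval -0.10 to 0.24). Each of these intervals lies inside log2 0.25 on either side of 0, so a wider difference between the libraries lay outside counting error at this depth. Cdh18 had 468 and 536, and its value of 0.19 (0.01 to 0.38) fell just short of the fold. Cdh7 had 284 and 252 (-0.17, interval -0.42 to 0.08).

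Promoter sequence was available from RefSeq (GRCm38.p6) for 22 of the members, as 25 windows of 250 bases before a transcription start. No clustered protocadherin had a window, so the shares below describe non-clustered members only. Cdh2, Cdh4, Cdh11 and Cdh13 were also among those with none. Cdh7 and Pcdh9 had more than 1 window each, and those of Pcdh9 overlap. The windows were searched on both strands for AGGTCA and GGGTCA, hexamers that COUP-TFII and many other nuclear receptors recognise, mostly as repeats. They differ in their first letter, so a position can match only 1 of them. AGGTCA was in 1 of the 25 windows (4%) and in 14.0% of all 32851 windows, and GGGTCA was in 1 (4%) and in 11.6% of all. At least 1 of them was in 2 member windows (8%), against 23.8% of all. Member windows had a median GC content of 58.4%, and all windows 52.4%. The members that hold a hexamer are shown first, followed by the non-clustered members with a window and a mean count of 100 or more that differed most in each direction, Pcdh8 and Cdh12. Each runs 5′ to 3′ on the strand of the gene, and capitals mark the hexamer, which Cdh18 and Cdh7 hold as its reverse complement.
Cdh18, chr15:23036213-23036462, plus strand, hexamer from base -228 before the start: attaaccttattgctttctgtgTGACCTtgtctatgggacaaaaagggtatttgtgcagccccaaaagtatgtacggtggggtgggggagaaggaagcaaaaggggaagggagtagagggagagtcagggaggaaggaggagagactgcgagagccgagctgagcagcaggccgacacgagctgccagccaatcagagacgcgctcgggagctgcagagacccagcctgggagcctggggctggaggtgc
Cdh7, chr1:109982650-109982899, plus strand, hexamer from base -96 before the start: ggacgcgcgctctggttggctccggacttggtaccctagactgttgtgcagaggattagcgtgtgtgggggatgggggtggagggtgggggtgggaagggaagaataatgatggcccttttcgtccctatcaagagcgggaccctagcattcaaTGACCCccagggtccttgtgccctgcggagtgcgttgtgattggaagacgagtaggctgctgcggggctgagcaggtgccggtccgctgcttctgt
Pcdh8, chr14:79771313-79771562, minus strand, no hexamer: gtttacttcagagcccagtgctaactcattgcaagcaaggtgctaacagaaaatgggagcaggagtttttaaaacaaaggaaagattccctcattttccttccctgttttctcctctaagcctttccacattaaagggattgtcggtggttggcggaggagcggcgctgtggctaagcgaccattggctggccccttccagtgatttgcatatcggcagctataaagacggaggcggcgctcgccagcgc
Cdh12, chr15:21111202-21111451, plus strand, no hexamer: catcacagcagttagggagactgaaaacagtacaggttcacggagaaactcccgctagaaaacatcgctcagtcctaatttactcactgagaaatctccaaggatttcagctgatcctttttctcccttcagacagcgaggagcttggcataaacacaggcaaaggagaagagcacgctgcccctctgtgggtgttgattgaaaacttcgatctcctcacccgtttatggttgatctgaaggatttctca

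The genes with a hexamer, Cdh18 and Cdh7, were both within log2 0.2, whereas Pcdh8 and Cdh12 were past it and hold neither hexamer in this window. In GENCODE the genes Cdh18 and Cdh12 begin at 22549022 and 20449265, so their windows stand before internal starts. A match of letters is a description and does not show a bound site, and its absence from 250 bases says nothing on the rest of the locus.

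Cadherins outside the classical types were represented by Cdh13 and Cdh23. Cdh13, or T-cadherin, has no cytoplasmic tail and is held in the membrane by a lipid anchor. It had 1102 normalized counts in the Ctrl-labelled library and 1533 in the OE-labelled one, a difference of 0.48 (0.36 to 0.59). The gene lies on chromosome 8 from 118283733 to 119324921, and its value was at percentile 94.0 of all genes compared. Cdh23, which forms tip links of hair cells with Pcdh15, had 213 and 234, a difference of 0.14 (-0.14 to 0.41). Cdh16 of kidney was at 0 in both libraries, Cdh17 of liver and intestine had 5 and 4 counts, and Cdh26 had 9 and 3. Of these cadherins, Cdh13 alone was past log2 0.2 among those compared.

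The delta-1 protocadherins, the non-clustered group with the longer extracellular part, were all lower under the label OE. Of the 4 members, 3 (75%) were lower by more than log2 0.2 with intervals below 0, against 9.16% of all genes. The 4 rows summed to 7754 and 6244 normalized counts, a difference of -0.31 (interval -0.36 to -0.26). Pcdh9, the highest member per kilobase of transcript, had 4315 and 3367 normalized counts, a difference of -0.36 (-0.42 to -0.29). Pcdh7 had 2228 and 1779, a difference of -0.32 (-0.42 to -0.23). Both intervals lie wholly past log2 0.2. Pcdh1 had 628 and 545, and its value of -0.20 (-0.37 to -0.03) was just past the fold, which it missed with upper quartile scaling (-0.19). The X-linked gene Pcdh11x had 583 and 553 (-0.08, interval -0.25 to 0.09), within the fold.

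The delta-2 protocadherins, some of which recruit the WAVE complex to move actin at axon contacts, were all above 0. Of the 5, 1 (20%) was higher by more than log2 0.2, against 17.9% of all genes. The 5 rows summed to 7342 and 8080 normalized counts, a difference of 0.14 (interval 0.09 to 0.18). Pcdh8, also called arcadlin, which is induced by neuronal activity, had 347 and 497, a difference of 0.52 (0.32 to 0.72). Pcdh10 had 3208 and 3591, a difference of 0.16 (0.09 to 0.23) that stayed within the fold although its interval was above 0. Pcdh17, which like Pcdh10 acts through the WAVE complex, had 2353 and 2490 (0.08, interval -0.00 to 0.16). Pcdh19, the X-linked gene of an epilepsy of girls, had 1099 and 1147 (0.06, interval -0.06 to 0.18), and Pcdh18 had 336 and 355 (0.08, interval -0.14 to 0.30).

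Of the remaining non-clustered protocadherins, Pcdh15 and Pcdh20 differed in opposite directions. Pcdh15, the tip-link partner of Cdh23, had 707 normalized counts in the Ctrl-labelled library and 604 in the OE-labelled one, a difference of -0.23 (-0.39 to -0.07). Pcdh20 had 416 and 484, a difference of 0.22 (0.02 to 0.41). Pcdh12, a protocadherin of endothelium, had 11 and 5 counts and was not compared. Both delta groups and these genes together had a median of 0.061 over 11 rows, or -0.0080 with Pcdh12 let in. Of the 11, 2 (18.2%) were higher and 4 (36.4%) lower by more than log2 0.2, all 6 with intervals clear of 0. With such intervals, 9.90% of all genes were higher and 9.16% lower.

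**Figure D3:**
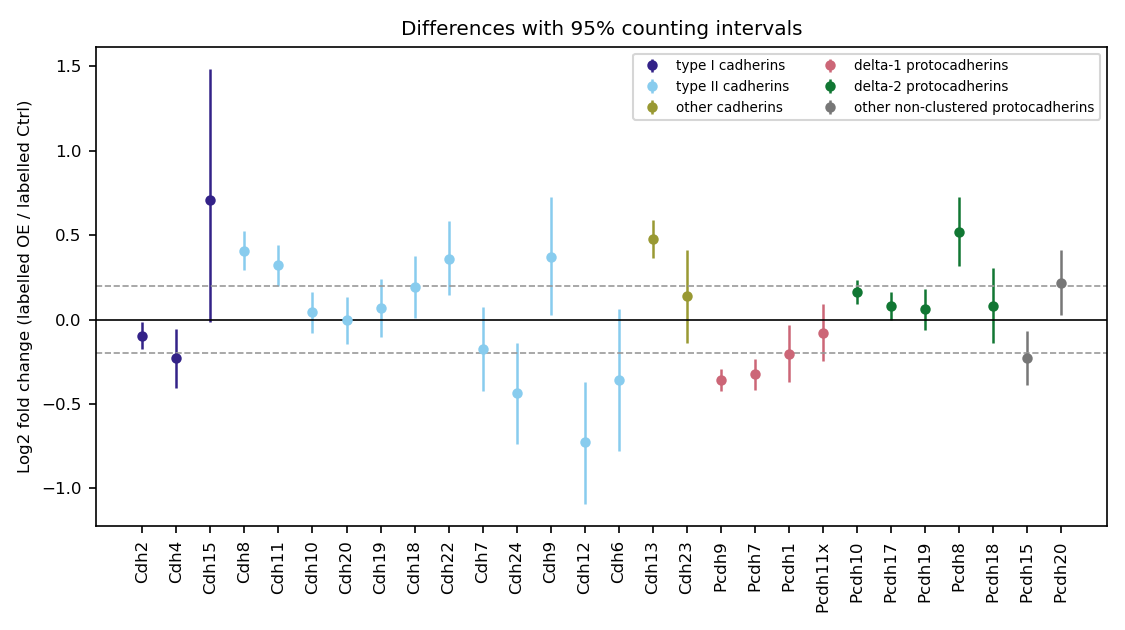
Log2 fold change of labelled OE over labelled Ctrl (vertical axis) for the 28 compared cadherins and non-clustered protocadherins (horizontal axis), with 95% counting intervals as bars and dashed lines at log2 0.2 on either side of 0. Among genes with narrower intervals than Cdh15, Pcdh8, Cdh13 and Cdh8 lie furthest above 0 and Cdh12 and Cdh24 furthest below, and the intervals of the abundant genes Pcdh9 and Pcdh7 are the narrow ones below 0.

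The clustered protocadherins lie in 3 arrays on chromosome 18 of GRCm38. The alpha cluster runs from 36930184 to 37187661, the beta cluster from 37264938 to 37524479 and the gamma cluster from 37661793 to 37841873. In the alpha and gamma clusters, each variable exon is spliced to constant exons that all genes of the cluster share, and beta genes have no shared exon. In GENCODE M21 the exon bases that a gene shares with others of its cluster were 48.6% to 54.9% for 12 alpha genes with a single annotated length and 41.7% to 45.9% for the gamma genes. RSEM divides reads from shared exons among the genes, and 48 of the 58 rows were not whole numbers (14 of 15 alpha, 12 of 21 beta and 22 of 22 gamma), against 5.35% of all rows. The 3 cluster sums were whole within 0.01, so the reads were divided inside each cluster. The counting intervals of alpha and gamma genes leave out the error of this division.

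Of the 58 rows, 55 were compared. Their summed normalized counts were 12575 and 12155, a difference of -0.05 (interval -0.09 to -0.01), and the median was -0.094. By more than log2 0.2, 8 (14.5%) were higher and 16 (29.1%) lower, against 17.9% and 16.6% of all genes. With intervals clear of 0 these were 6 (10.9%) and 9 (16.4%), against 9.90% and 9.16%. In the Ctrl-labelled library, 63.0% of clustered counts were gamma (exact binomial interval 62.1% to 63.9%), 18.6% alpha (17.9% to 19.4%) and 18.3% beta (17.6% to 19.1%). In the OE-labelled library gamma had 62.2% (61.4% to 63.0%), alpha 18.5% (17.9% to 19.2%) and beta 19.3% (18.6% to 19.9%). The intervals of the libraries overlap for each cluster. The log levels of the 55 genes correlated with r = 0.956 between the libraries, a description of genes that share a cluster and its reads.

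**Figure D4:**
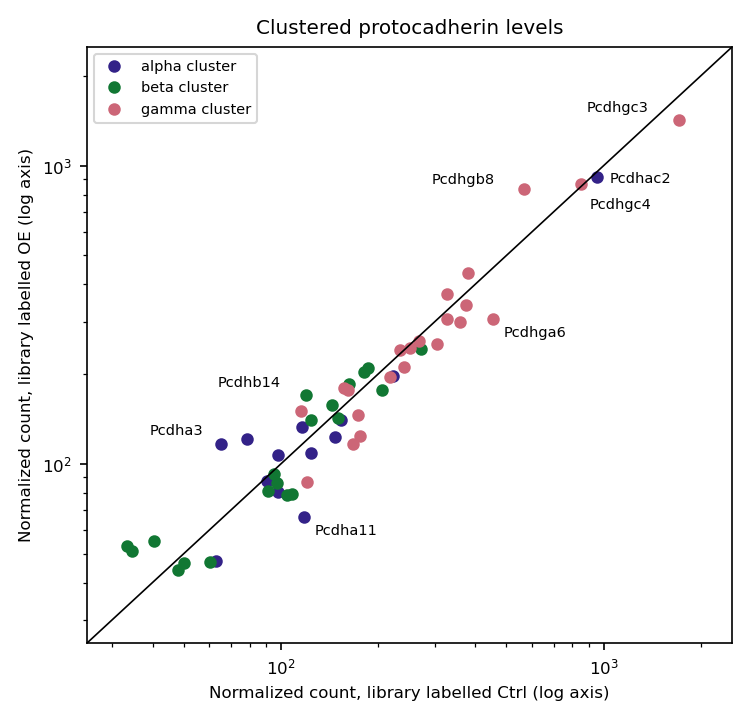
Normalized counts of the 55 compared clustered protocadherins in the library labelled Ctrl (horizontal, log axis) and the library labelled OE (vertical, log axis), coloured by cluster, with the line of equal level. Most lie near the line, Pcdhgb8, Pcdha3 and Pcdhb14 lie above it and Pcdhga6 and Pcdha11 below it.

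The alpha cluster was led by Pcdhac2, 1 of the C-type genes that stand at the end of the alpha and gamma arrays, known for the spacing of serotonergic axons. It had 956 and 920 normalized counts (-0.06, interval -0.19 to 0.08) and held 40.8% of the alpha counts in both libraries. Of 13 alpha genes compared, 2 (15.4%) were higher and 1 (7.69%) lower with intervals clear of 0, against 9.90% and 9.16% of all genes. The alpha sum differed by -0.05 (interval -0.14 to 0.03). Pcdha5 had 78.7 and 122, a difference of 0.62 (0.19 to 1.05). Below a mean of 100 counts, Pcdha3 had 65.0 and 117 (0.84, interval 0.39 to 1.32) and Pcdha11 had 118 and 66.6 (-0.82, interval -1.28 to -0.39), the highest and the lowest values of all compared members, named after their values were seen. Pcdha3 held 2.77% and 5.18% of the alpha counts, and Pcdha11 held 5.03% and 2.95%. The other 3 alpha genes under that mean were between -0.41 and -0.05, with intervals that included 0.

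The other alpha genes whose mean reached 100 counts had intervals that included 0. Pcdha4 had 223 and 197 normalized counts (-0.18), Pcdha2 had 154 and 140 (-0.13) and Pcdha9 had 147 and 123 (-0.25). For Pcdha7 the values were 124 and 109 (-0.19), for Pcdha12 they were 117 and 133 (0.19) and for Pcdha6 they were 97.8 and 107 (0.13). Pcdha8, with 12.48 and 5.35 counts, and a row named Pcdha4-g, at 0 in both, were not compared.

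Beta genes are single exons with no constant part, so their reads are shared only where the genes themselves are alike. Of 20 compared, 2 (10%) were higher and 1 (5%) lower with intervals clear of 0, against 9.90% and 9.16% of all genes. The beta sum differed by 0.02 (interval -0.06 to 0.10). Pcdhb14 was the 1 beta gene whose mean reached 100 counts and whose difference was past log2 0.2 with a clear interval. Its counts were whole numbers, 107 and 189, or 119 and 170 when normalized, a difference of 0.51 (0.16 to 0.86). It held 5.16% and 7.24% of the beta counts. Pcdhb20 had 205 and 177 (-0.22, interval -0.51 to 0.08), past the fold with an interval that included 0.

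The other beta genes at that level were within log2 0.2. Pcdhb17, the highest in both libraries, had 273 and 242 normalized counts (-0.17). Pcdhb22 had 186 and 209 (0.17), Pcdhb9 had 181 and 204 (0.17) and Pcdhb18 had 163 and 185 (0.18). Pcdhb7 had 150 and 143 (-0.07), Pcdhb3 had 144 and 157 (0.13) and Pcdhb12 had 124 and 140 (0.18). The 11 beta genes below a mean of 100 counts ranged from -0.45 to 0.65, and 2 of them were past log2 0.2 with a clear interval, Pcdhb8 with 33.4 and 52.9 (0.65, interval 0.01 to 1.35) and Pcdhb16 with 108 and 78.9 (-0.45, interval -0.89 to -0.02). Pcdhb1 had 2 counts in each library. No row carried the symbol Pcdhb21.

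The gamma cluster held most of the clustered counts, and its sum was lower by -0.07 (interval -0.11 to -0.02). Of 22 genes, 2 (9.09%) were higher and 7 (31.8%) lower by more than log2 0.2 with intervals clear of 0. The shares over all genes were 9.90% and 9.16%. The most abundant gamma genes were the C-type genes Pcdhgc3 and Pcdhgc4. Pcdhgc3, which acts in the growth of dendrites, had 1707 and 1419 normalized counts, a difference of -0.27 (-0.37 to -0.16), and 21.5% and 18.8% of the gamma counts. Pcdhgc5 had 360 and 299, a difference of -0.27 (-0.49 to -0.04). Pcdhgc4, the isoform needed for the survival of interneurons, had 854 and 867 (0.02, interval -0.12 to 0.16). With Pcdhac1 and Pcdhac2, the 5 C-type genes held 31.6% of clustered counts in the Ctrl-labelled library (30.7% to 32.4%) and 29.5% in the OE-labelled one (28.7% to 30.3%). Their sum differed by -0.15 (interval -0.21 to -0.08), and that of the other 50 genes by -0.01 (interval -0.05 to 0.04). Pcdhgc3, the most abundant of the 5, weighs most in the C-type sum. Pcdhac1 (-0.29), Pcdhac2 (-0.06) and Pcdhgc4 (0.02) had intervals that included 0. All 5 rows hold divided reads, and the intervals leave out the error of that division.

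Among alternate gamma genes, Pcdhgb8 differed most upward. It had 566 normalized counts in the Ctrl-labelled library and 838 in the OE-labelled one, a difference of 0.57 (0.41 to 0.72), and its share of the gamma counts was 7.13% (6.55% to 7.76%) and 11.1% (10.4% to 11.8%). GENCODE lists this gene as a polymorphic pseudogene, and it was the third most abundant gamma row. Pcdhgb1 had 115 and 151, a difference of 0.39 (0.03 to 0.76). Both higher genes are of the gamma B type, whose 7 members had a summed difference of 0.20 (interval 0.10 to 0.29). This sum rests on Pcdhgb8, since the other 6 summed to 1194 and 1179, a difference of -0.02 (interval -0.13 to 0.10), a sum taken after the values were seen. Of the 7, 3 were below 0, with Pcdhgb4 and Pcdhgb5 past the fold.

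Of the 12 gamma A genes, 4 (33.3%) were lower by more than log2 0.2 with intervals below 0, against 9.16% of all genes. By as much, 0 were higher, against 17.9% of all genes. The gamma A sum differed by -0.14 (interval -0.21 to -0.06). Pcdhga6 had 455 and 307, a difference of -0.57 (-0.78 to -0.36), with shares of the gamma counts of 5.73% and 4.06%. Pcdhga10 had 168 and 116 (-0.53, interval -0.88 to -0.18). Pcdhga1 had 120 and 87.2 (-0.46, interval -0.88 to -0.06), and Pcdhga5 had 306 and 252 (-0.28, interval -0.52 to -0.03). From the gamma B type, Pcdhgb5 had 176 and 124 (-0.50, interval -0.85 to -0.17). Genes with values of either sign stand next to each other in the array.

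The remaining gamma genes had intervals that included 0. In normalized counts, Pcdhga7 had 379 and 435 (0.20), Pcdhga11 had 375 and 341 (-0.14) and Pcdhgb6 had 327 and 371 (0.18). Pcdhga3 had 326 and 306 (-0.09), Pcdhga4 had 268 and 258 (-0.05) and Pcdhga8 had 252 and 244 (-0.05). Levels were 241 and 212 for Pcdhgb2 (-0.19), 234 and 242 for Pcdhga12 (0.05) and 218 and 196 for Pcdhga2 (-0.15). The lowest were Pcdhgb4 with 173 and 145 (-0.25), Pcdhgb7 with 161 and 176 (0.13) and Pcdhga9 with 156 and 180 (0.20).

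**Figure D5:**
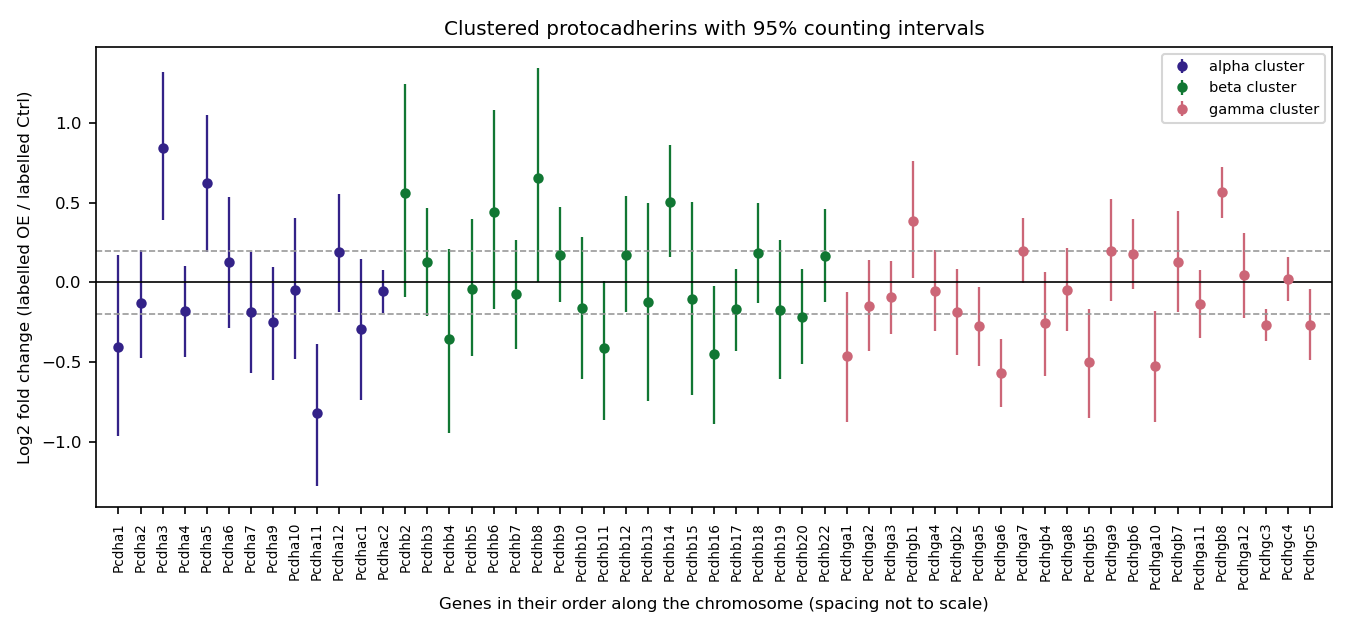
Log2 ratio of labelled OE to labelled Ctrl (vertical axis) for the compared clustered protocadherins in their order along the chromosome (horizontal axis), with 95% counting intervals as bars, dashed lines at log2 0.2 on either side of 0, and colours by cluster. Higher and lower genes stand side by side in each cluster, and the widest values, 0.84 and -0.82, belong to the low alpha genes Pcdha3 and Pcdha11.

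Genes that work with cadherins were read from 3 lists. Of 18 catenins and cytoplasmic partners compared, 1 (5.56%) was higher and 6 (33.3%) lower by more than log2 0.2, with a median of -0.13. The shares over all genes were 17.9% and 16.6%. With intervals clear of 0 these were 1, the delta-catenin gene Ctnnd2 at 0.23, and 5 (27.8%), against 9.90% and 9.16% of all genes. Beside those named next, Fyn at -0.20 and Wasf1 at -0.22 were on the lower side. The largest differences were those of Ptk2b, a focal adhesion type kinase, with 379 and 173 normalized counts (-1.13, interval -1.39 to -0.87), of Ctnnd1, or p120 catenin, which keeps classical cadherins at the membrane, with 1741 and 1376 (-0.34, interval -0.44 to -0.24), and of Jup, or plakoglobin, with 760 and 628 (-0.28, interval -0.43 to -0.12). Other genes of the cadherin superfamily had a median of -0.081 over 16 compared, with 2 (12.5%) higher and 4 (25%) lower by the rule with intervals. The low counts of Cdhr1, Cdhr3 and Dsg2 made up the lower side together with Fat1. Ret, the receptor tyrosine kinase with cadherin repeats that serves GDNF, had 4086 and 9394 (1.2, interval 1.15 to 1.26) and is also 1 of the dopaminergic markers. Clstn2, a calsyntenin of synapses, had 1747 and 2394 (0.45, interval 0.36 to 0.55), and the giant cadherin Fat1 had 1892 and 1505 (-0.33, interval -0.43 to -0.23).

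Regulators of the protocadherin clusters formed the third list, since CTCF and cohesin loop the chosen promoters to their enhancers. Of 15 compared, Dnmt3b, at 12 and 19 counts, was higher by more than log2 0.2 with an interval that included 0, and Stag2 was lower. Each is 6.67% of the list, against 17.9% and 16.6% of all genes past that fold. The median over the list was -0.050. Stag2, a cohesin subunit, had 1662 and 1409 normalized counts (-0.24, interval -0.34 to -0.14). Ctcf had 1289 and 1139 (-0.18, interval -0.29 to -0.06), and Pds5a, a cohesin partner, had 568 and 505 (-0.17, interval -0.35 to 0.01).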

How the data were processed

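RNA of dissected ventral midbrain was made into stranded polyadenylated libraries and sequenced from both ends by a company, whose pipeline produced the table. The authors deposited RSEM expected counts per gene symbol, not scaled. The submitters' processing notes name mm10, and the aligner, the RSEM version, the annotation and the strand setting are not given in the sources used here. Columns were tied to samples by the number in their labels.

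Expected counts were scaled by TMM (edgeR 4.0.16, R 4.3.3, factors 1.005 and 0.9947). For fold changes, 0.5 was added to each normalized count as a pseudocount, and genes were compared from a mean count of 10. Counts were rounded for the 95% Clopper-Pearson intervals (scipy 1.17.1), which do not replace biological replicates. The intervals were run on simulated Poisson counts, the model they assume, without divided reads. That run checks the code only and cannot show how the intervals hold for these libraries. Lengths, positions and shared exon bases came from GENCODE M21 (GRCm38) by symbol, with a single length for 89 of 92 rows, and promoters from RefSeq.

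Named genes are all members with a mean of at least 100 counts, those past log2 1, and the 3 largest differences per list at that mean. Members below it and marker or list genes named besides were chosen after their values were seen. The members and lists were chosen with earlier results of these data known. The C-type, gamma A and gamma B groups were not among the planned classes, so their sums only describe these libraries. Alternatives were total-count, upper quartile and DESeq2 (1.42.0) scaling, a pseudocount of 5, count minimums of 0 and 100, a threshold of log2 0.5, and cluster sums. Figures used matplotlib 3.10.9.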

Additional observations from a re-analysis of the deposited data

How the results depend on the processing

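No paired analysis was possible because there is 1 library to a group. With a threshold of log2 0.5, 8 members were higher, 5 lower and 11 past it with an interval clear of 0, from 16, 24 and 29 at log2 0.2, since the threshold by construction sets how many can pass. The median of the other cadherins turned from 0.31 to -0.22 when members with any count were let in, which adds Cdh17 and Cdh26 at 3 to 9 counts, and that of the other protocadherins from 0.061 to -0.0080, which adds Pcdh12. Among the 65 named members, upper quartile scaling brought Cdh18 (0.21), Pcdhga7 (0.21), Pcdhga9 (0.21) and Pcdha12 (0.20) past the fold, the first pair with intervals clear of 0, and took Pcdh1 (-0.19) out of it. Total counts brought Pcdha7 and Pcdhgb2, at -0.20 each, past it with intervals that included 0, and DESeq2 size factors and a pseudocount of 5 moved none across it. Among members past the fold, 40.0% were higher, against 38.1% by total counts and 46.5% by the upper quartile. The median of all genes stayed between -0.011 and 0.018 under each scaling. The beta median turned from -0.056 to 0.17 in genes with means of 100 counts or more and to 0.020 for the summed counts, and the cause was not tested. The planned cluster shares from whole-number rows gave no value, since alpha and gamma have no such row above 0. Depth limits the low genes: 16 of the 55 clustered genes compared had means under 100 counts, and the division of shared reads adds an error that the counts do not show.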
